A study of Mus musculus with 5 samples.

Results

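The mitochondrial solute carriers are described here in C2C12 cells, an established mouse line of myoblasts, which are dividing muscle precursors. All genes whose symbol begins with Slc25a followed by a number were taken, which gave 38 of the 12615 genes listed. Of the 47 protein-coding genes of the family in RefSeq, 9 are not analysed here (Slc25a2, Slc25a18, Slc25a21, Slc25a31, Slc25a34, Slc25a41, Slc25a48, Slc25a53 and Slc25a54). The comparison was of 2 samples labelled miR-16 knockdown with 3 samples that received the empty vector pCMVmiR, all 5 hours after transfection with 1 μg of plasmid DNA. Both groups grew in medium with 20% serum. The treatment protocol names a plasmid for miR-16-1 and not an inhibitor, and the mature miRNA was not measured. Whether miR-16 was lowered therefore rests on names alone, the sample label and the authors' heading of inhibition against control. The labels do not tie the samples to independent cultures. The p-values therefore refer to variation among these 5 samples, part of which may be technical.

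Carriers of this family are small proteins of the inner mitochondrial membrane that move nucleotides, phosphate, carboxylates, amino acids, cofactors and metal ions between the cytosol and the matrix. They feed oxidative phosphorylation with ADP and phosphate, pass ATP out, and join the cytosolic and mitochondrial steps of amino acid, lipid and haem metabolism. In muscle the ADP/ATP carriers are among the most abundant proteins of mitochondria. MicroRNA miR-16 binds mRNAs by pairing its seed with short matches, mostly in the 3' UTR, and represses them.

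Values are the authors' normalized counts, which look like read counts scaled by a size factor of each sample, although not all low values fall on whole reads. Estimated depth was 15.15 and 16.97 M reads in the knockdown samples and 15.46, 20.08 and 15.4 M in empty vector samples 1, 2 and 3. The column names carry a code, read here as the flow cell, that both knockdown samples and empty vector 2 share (B). Empty vector samples 1 and 3 share another (A). The lane codes and running numbers in these names divide the samples in the same way. Flow cell below therefore stands for any of these, which cannot be told apart. The share of Rn18s, a ribosomal RNA, was 0.413% and 0.536% of all signal in the knockdown samples and 0.467% in empty vector 2, but 1.46% and 2.94% in empty vector samples 1 and 3. Differences against empty vector 2 alone, called flow cell B below, are therefore given where they matter. Samples also differed in how their values followed transcript length, with slopes of -0.0139 and -0.0921 (log2 per doubling of length) with knockdown and 0.0714, -0.0164 and 0.051 with empty vector. A value "with the length trend removed" has this slope taken out. The part of flow cell, ribosomal RNA and length in any difference was not tested further. All 6 myoblast markers checked (Myod1, Myf5, Des, Cdh15, Vcam1 and Chrna1) were present, with a summed level of 7630 to 8160 normalized counts with knockdown and 7788 to 8308 with empty vector. Of the macrophage, endothelial and adipocyte markers, Csf1r, Kdr and Fabp4 had a row, and none exceeded 22.7 normalized counts in any sample. Of the 4 fibroblast markers, Pdgfra and Col6a3 had a row and were not low. Col6a3 had 9149 and 6919 normalized counts with knockdown, against 9007, 8681 and 9107 with empty vector, with knockdown 2 the lowest. Pdgfra had 192 and 227 with knockdown, against 249.9, 258 and 262 with empty vector, so both knockdown samples lay below every control. Whether these move with any carrier was not tested. The miR-16 host genes Dleu2 and Smc4 had adjusted p-values of 0.994 and 0.858 (limma).

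The mature sequence and its sites in carrier transcripts are shown first, since they are what the manipulation could act on. The mouse genome holds a pair of genes for the same mature miR-16-5p, Mir16-1 at chr14:61631936-61631957 on the minus strand and Mir16-2 at chr3:69009918-69009939 on the plus strand (RefSeq, GRCm38.p6). In the mature sequence the capitals mark the seed, bases 2 to 8.
mmu-miR-16-5p: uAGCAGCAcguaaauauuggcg

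The longest annotated 3' UTR of each carrier was searched, on the transcript strand, for the seed match TGCTGCT called 8mer where an A follows and 7mer-m8 where none does, and for GCTGCTA (7mer-A1). Of the 37 carriers with a UTR to search, 13 held at least 1 site, which is 35.1%, against 29.3% of the 11511 tested genes with a UTR. They held 21 sites in all, some of them overlapping. One site, in Slc25a37, which encodes the iron carrier mitoferrin-1, was an 8mer, within the printed window chr14:69241885-69241912 on the minus strand (GRCm38). Slc25a15, which encodes the ornithine carrier, held 7mer-m8 sites at bases 784 and 1495 of a UTR of 2306 bases, within the printed windows chr8:22377057-22377084 and chr8:22376346-22376373 on the minus strand. Each window is 28 bases long. These 3 sites are printed because the first is the longest match in the family and the others lie in the carrier with the smallest p in the comparison below. Capitals mark the matched bases.
Slc25a37: gatgtctgtcgTGCTGCTAcagttgtaa
Slc25a15: tcctccctctgTGCTGCTcctgaaagac
Slc25a15: tggctactgagTGCTGCTtcatctgaac

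Carriers with a site did not stand on one side of the comparison. Of the 13 with a site, 6 were higher with knockdown and 7 lower, and their median log2 difference was -0.0082. Of the 25 others, which include Slc25a43 with no UTR to search, 14 were higher and 11 lower, with a median of 0.0084. The median UTR was 2240 bases with a site and 802 without, so the split is not free of length. With the length trend removed, Slc25a30 (0.021), Slc25a35 (0.00071) and Slc25a37 (0.012) of those with a site turned to higher. Of the others, Slc25a36 and Slc25a51 turned to higher, and Slc25a3, Slc25a39 and Slc25a43 to lower. Slc25a22, with the most sites (4), had a log2 difference of -0.011. Its sites at bases 1251, 1254 and 1257 of the UTR overlap within a single repeat, so they are not separate places. Slc25a28, the other carrier with an unadjusted p under 0.05 (limma), held none in a UTR of 325 bases. A site is a match of letters and was not tested for binding.

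Per kb of transcript, 3 carriers stood above all others in every sample. Slc25a5, on chromosome X, encodes the ADP/ATP carrier typical of proliferating cells and averaged 9938 normalized counts per kb with knockdown and 8996 with empty vector. Slc25a3, on chromosome 10, encodes the phosphate carrier and averaged 6143 and 5951. Slc25a4, on chromosome 8, encodes the ADP/ATP carrier of heart and skeletal muscle and averaged 4222 and 3835. Together they held 69.5% and 69.7% of the length-scaled signal of the family in the knockdown samples, and 67.5%, 69.5% and 68.3% in empty vector samples 1, 2 and 3. Slc25a39 and Slc25a24 followed, at 1255 and 1202 normalized counts per kb with knockdown and 1247 and 1196 with empty vector. Slc25a39 was the higher of this pair in every sample, by a small margin. The lowest carrier over all 5 samples was Slc25a47, at 9.01 normalized counts per kb with knockdown and 3.51 with empty vector, and its range overlapped that of Slc25a35, at 6.54 with knockdown and 7.32 with empty vector.

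**Figure D1:**
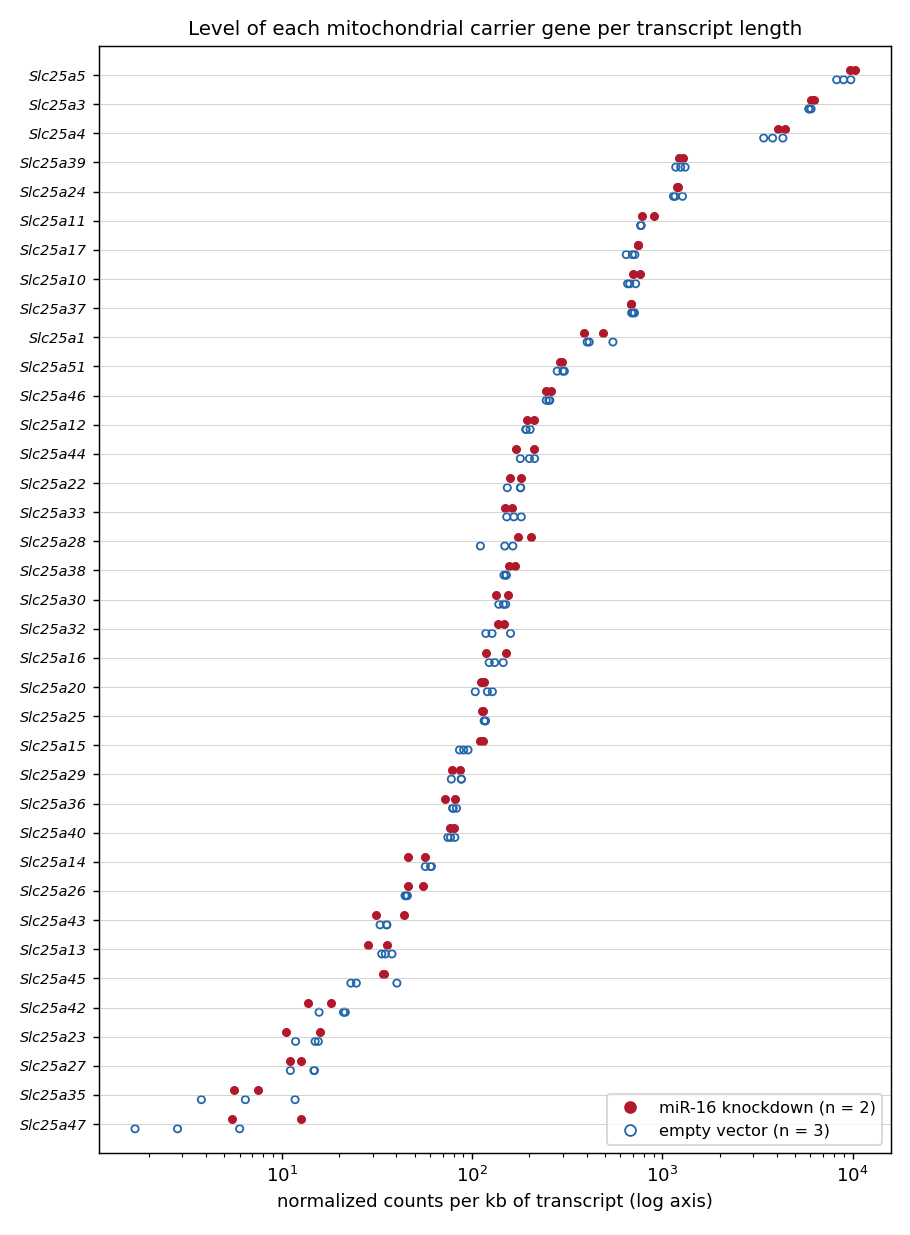
Normalized counts per kb of transcript (log axis) of 37 carrier genes, in order of mean level. Filled points are the 2 knockdown samples and open points the 3 empty vector samples, and Slc25a5, Slc25a3 and Slc25a4 stand apart at the top.

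No carrier met the threshold for a difference. By limma, 0 of 38 had an adjusted p under 0.05 (lowest 0.565), as for 0 of all 11990 genes tested, or 0.0%. At an unadjusted p under 0.05 there were 2 carriers, Slc25a15 and Slc25a28, against 8.13% of all genes tested. Both were higher with knockdown (2.83% of all genes) and no carrier was lower at this p (5.3% of all genes). In bulk RNA, fewer cells with a transcript and less of it per cell cannot be told apart. In the authors' deposited table, 37 of the carriers have a p-value and the same 2 lie under 0.05, while 17 have an adjusted p, from 0.41 to 0.982. Under 0.05 in that column are 1.06% of the genes listed with one and 0 carriers.

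The family as a whole sat at the middle of the transcriptome. With knockdown, 20 carriers were higher and 18 lower. Their median log2 difference was 0.0062, against 0.00073 over all genes tested, of which 50.2% were higher. Differences ran from -0.28 for Slc25a42 to 1.28 for Slc25a47, and 33 of 38 were smaller than 0.25 in size (86.8%, against 81.3% of all genes tested). The groups did not overlap for 9 carriers or 23.7%, against 23.8% of all genes tested. Of these, 6 were higher with knockdown (Slc25a11, Slc25a15, Slc25a17, Slc25a26, Slc25a28 and Slc25a38; 11.4% of all genes) and 3 were lower (Slc25a14, Slc25a25 and Slc25a37; 12.4% of all genes). Against empty vector 2 alone, both knockdown samples lay above it for 13 carriers (31.1% of all genes) and below it for 11 (34.0% of all genes). Among the empty vector samples, the median coefficient of variation of a carrier was 6.1%, against 8.57% over all genes tested. Summed over the family, the signal was 53200 and 55747 with knockdown and 49781, 53598 and 52139 in empty vector samples 1, 2 and 3.

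**Figure D2:**
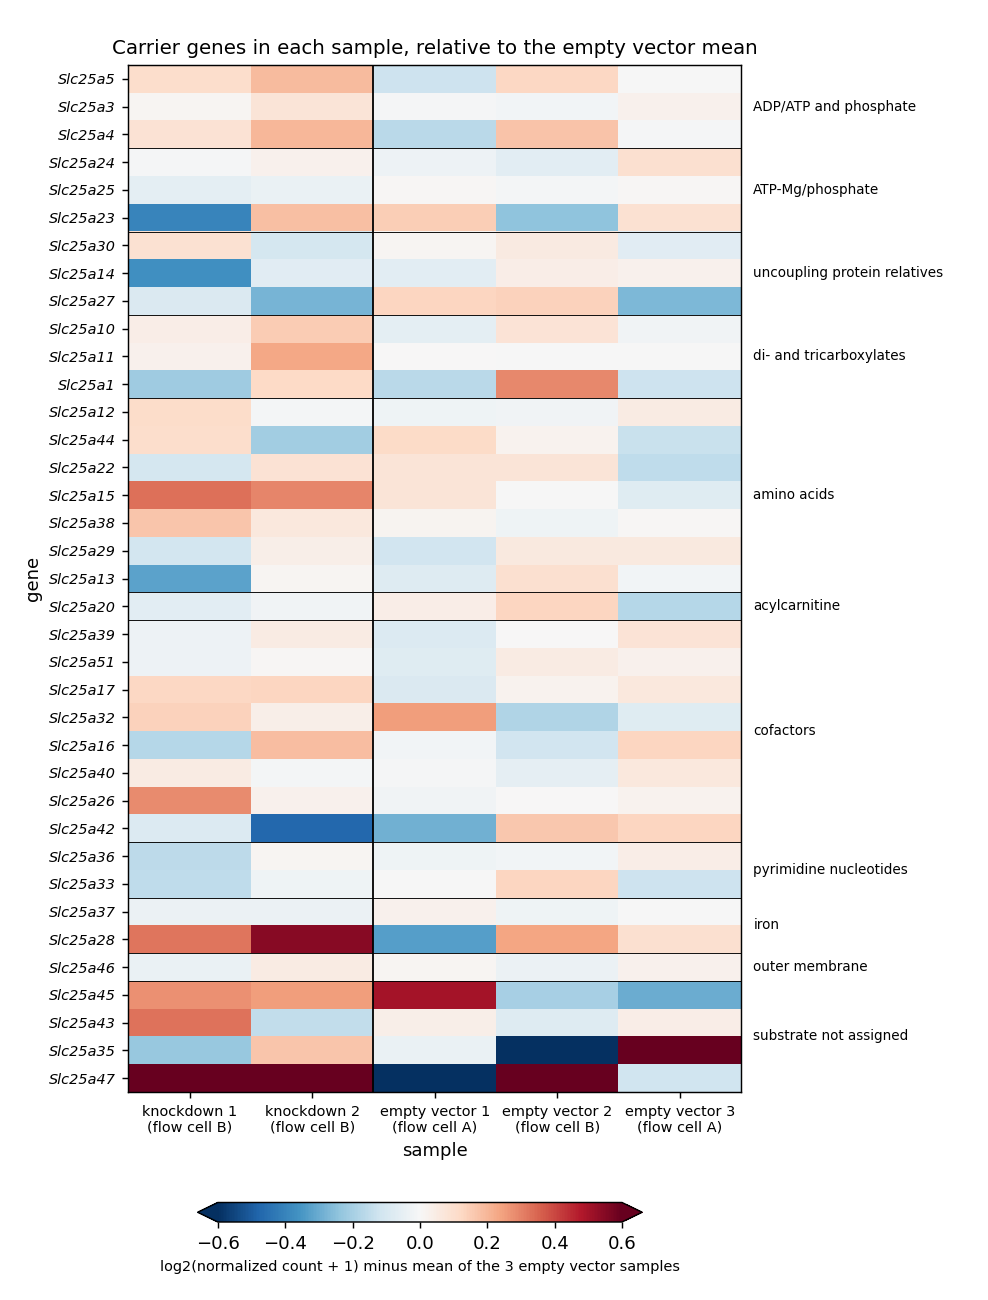
The same 37 carrier genes in each sample, as log2(normalized count + 1) minus the mean of the 3 empty vector samples (colour), grouped by transported substance. Most cells are pale, Slc25a15 is red in both knockdown samples, and Slc25a47, Slc25a35 and Slc25a45 vary most between empty vector samples.

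The ADP/ATP and phosphate carriers, which supply the ATP synthase and export its product, all had a slightly positive log2 difference with overlapping groups. With knockdown, Slc25a5 measured 11957 and 12688 normalized counts in samples 1 and 2, against 10222, 12129 and 11116 in empty vector samples 1, 2 and 3. Empty vector 2 lay between the knockdown samples and the other controls below both. The limma log2 difference was 0.15 ± 0.079 (SE, adjusted p = 0.657), which became 0.022 on flow cell B and 0.040 with the length trend removed. In GENCODE M21, 46.6% of the 50-base words of the Slc25a5 transcript also occur in transcripts of 9 other genes, so the split of reads between these copies is uncertain.

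Slc25a4 followed the same order of samples as its paralogue. Its normalized counts were 7807 and 8449 with knockdown, against 6563, 8277 and 7309 in empty vector samples 1, 2 and 3. The log2 difference was 0.14 ± 0.090 (SE, adjusted p = 0.708) by limma and -0.027 against empty vector 2, so its sign turned on flow cell B. Slc25a3 had 9684 and 10119.8 with knockdown, against 9541, 9483 and 9754, with a log2 difference of 0.046 ± 0.068 (SE, adjusted p = 0.878, limma) and -0.028 with the length trend removed. The testis form of the ADP/ATP carrier, Slc25a31, was not analysed here.

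The ATP-Mg/phosphate carriers adjust the adenine nucleotide pool of the matrix in response to calcium. Slc25a24, the main one in these cells, had 4075 and 4170.4 normalized counts with knockdown, against 4010.2, 3926 and 4378 with empty vector. Both knockdown samples lay inside the range of the controls (log2 difference 0.0078 ± 0.077 SE, adjusted p = 0.986, limma). Slc25a25 had 396 and 401 with knockdown, against 415, 409 and 414 with empty vector, so that the groups did not overlap at a log2 difference of only -0.051. Slc25a23 lay near the low end of the family, between 35.6 and 53.5 with knockdown and between 39.8 and 52.3 with empty vector.

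Carriers of di- and tricarboxylates link the citric acid cycle to cytosolic lipid synthesis and to the shuttles that move reducing equivalents. Slc25a10, the dicarboxylate carrier on chromosome 11, had 1424 and 1541 normalized counts with knockdown, against 1329, 1465 and 1364 with empty vector. Empty vector 2 again lay between the knockdown samples (log2 difference 0.097 ± 0.087 SE, adjusted p = 0.797, limma, and 0.016 on flow cell B). Slc25a11, the oxoglutarate carrier, had 1346 and 1552 with knockdown, against 1323, 1317 and 1319.9 with empty vector. Both knockdown samples lay above every control. The coefficient of variation was 10.1% among the knockdown samples and 0.235% among the controls. Its log2 difference of 0.13 became 0.028 without knockdown 2, 0.23 without knockdown 1 and 0.065 with the length trend removed. Slc25a1, which exports citrate, had 647 and 815 with knockdown, against 671, 916 and 688 with empty vector, and its highest value was that of empty vector 2. It had a log2 difference of -0.047 against all controls, -0.33 on flow cell B and 0.097 without empty vector 2.

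Among the amino acid carriers, Slc25a15 had the smallest p of the family. The ornithine carrier it encodes, on chromosome 8, brings ornithine into the matrix for the urea cycle in liver and for arginine and proline metabolism elsewhere. It measured 390.3 and 380.0 normalized counts with knockdown, against 327, 310.0 and 295 with empty vector. Both knockdown samples lay above every control, and the controls of both flow cells lay close together. The means were 385 ± 7.30 (SD, n = 2) and 310.5 ± 16.1 (SD, n = 3), a ratio of 1.24. The limma log2 difference was 0.31 ± 0.13 (SE, adjusted p = 0.565), the same on flow cell B (0.31), 0.33 with the length trend removed and 0.27 to 0.35 as each sample was left out in turn. In the authors' deposited table the ratio is 1.24 with an unadjusted p of 0.0225.

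The other amino acid carriers were close to their controls. Slc25a12 encodes the aspartate/glutamate carrier typical of muscle and brain, a part of the malate-aspartate shuttle. It had 1339 and 1230.0 normalized counts with knockdown, against 1216, 1222 and 1282 with empty vector (log2 difference 0.050, adjusted p = 0.902, limma). Slc25a13, its paralogue typical of liver, had 88.4 and 112 with knockdown, against 105, 118 and 109 with empty vector. Knockdown 1 was the lowest sample, and without it the log2 difference of -0.15 became 0.013. Slc25a38, a glycine carrier known from haem synthesis in red cell precursors, had 301 and 281 with knockdown, against 271, 264 and 270.0 with empty vector. Its groups did not overlap, at a log2 difference of 0.11 ± 0.13 (SE, adjusted p = 0.845, limma), which was 0.064 without knockdown 1 and 0.055 with the length trend removed. Slc25a22 (glutamate), Slc25a29 (basic amino acids) and Slc25a44 (branched-chain amino acids) had log2 differences of -0.011, -0.039 and -0.051.

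**Figure D3:**
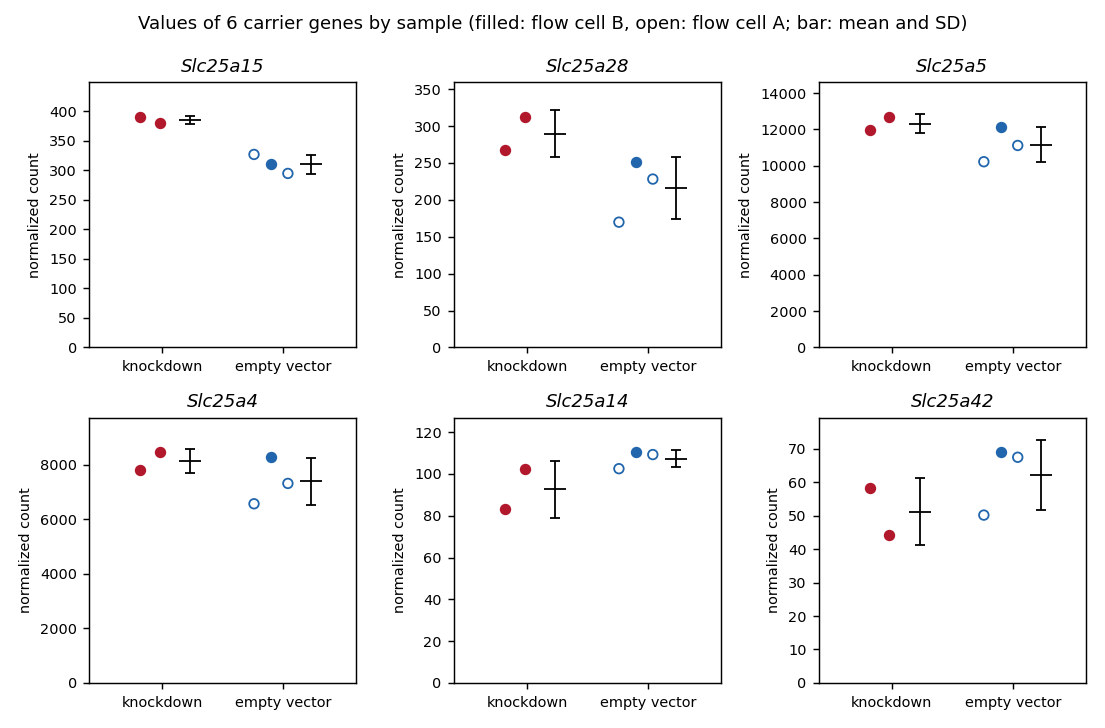
Normalized counts of 6 carrier genes in the knockdown and empty vector samples, with the mean and SD beside the points. Filled points are samples on flow cell B and open points those on flow cell A. Slc25a15 and Slc25a28 are higher in both knockdown samples, whereas empty vector 2 lies among the knockdown samples for Slc25a5 and Slc25a4.

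Of the mitoferrins, which bring iron into the matrix for haem and iron-sulphur clusters, one lay higher and the other lower. Slc25a28, or mitoferrin-2, the form found in most tissues, had 267 and 312 normalized counts with knockdown, against 169.8, 252 and 228 in empty vector samples 1, 2 and 3. Both knockdown samples were above every control, with empty vector 2 the nearest. Means were 289.9 ± 31.8 (SD, n = 2) and 217 ± 42.1 (SD, n = 3), and the limma log2 difference was 0.43 ± 0.18 (SE, adjusted p = 0.565). It was 0.20 against empty vector 2 and 0.27 without empty vector 1, the lowest control. Slc25a37, or mitoferrin-1, the form typical of red cell precursors, was the more abundant one. It had 2854 and 2856 with knockdown, against 2981, 2879 and 2924 with empty vector, and did not overlap between groups at a log2 difference of -0.036 ± 0.075 (SE, adjusted p = 0.918, limma), or 0.012 with the length trend removed.

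Carriers of cofactors formed the largest group, with 6 of 9 higher and 3 lower. Slc25a39, known to carry glutathione, led it with 2058 and 2170.1 normalized counts with knockdown, against 1982, 2103 and 2219 with empty vector (log2 difference 0.0098, adjusted p = 0.983, limma). Slc25a17 encodes a carrier of coenzyme A and other cofactors that sits in the peroxisome membrane. It had 1289.5 and 1291 with knockdown, against 1114, 1200.1 and 1236 with empty vector, so both knockdown samples lay above every control. The log2 difference was 0.13 ± 0.087 (SE, adjusted p = 0.732, limma), 0.10 on flow cell B and 0.061 with the length trend removed. Slc25a42, a mitochondrial carrier of coenzyme A, had 58.2 and 44.1 with knockdown, against 50.2, 69.0 and 67.5 with empty vector, and the groups overlapped. Its log2 difference of -0.28 ± 0.29 (SE, adjusted p = 0.827, limma) was -0.080 without knockdown 2 and -0.47 without knockdown 1.

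Other cofactor carriers showed no difference larger than their error. Slc25a26 brings S-adenosylmethionine into mitochondria and had 106 and 88.2 normalized counts with knockdown, against 85.4, 86.8 and 87.9 with empty vector. Its groups were separated by less than 1 read of knockdown 2, and its log2 difference of 0.15 was 0.024 without knockdown 1. Slc25a32, linked to folate and flavin transport, had 869 and 811 with knockdown, against 941, 698 and 752 with empty vector, and empty vector 1 was the highest sample (log2 difference 0.087 against all controls, 0.27 on flow cell B and -0.0032 without empty vector 2). Slc25a51, the carrier of NAD, Slc25a16, linked to coenzyme A, and Slc25a40, a paralogue of Slc25a39, had log2 differences of -0.012, 0.0084 and 0.016.

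Relatives of the uncoupling proteins all had a negative log2 difference, and none passed the threshold. Only for Slc25a14 did the groups not overlap. Slc25a14, on chromosome X, had 83.0 and 102.3 normalized counts with knockdown, against 102.5, 110.4 and 109 with empty vector. Knockdown 2 lay just below the lowest control, and knockdown 1 set most of the log2 difference of -0.22 ± 0.22 (SE, adjusted p = 0.820, limma), which was -0.069 without it and -0.37 without knockdown 2. Slc25a27 had a log2 difference of -0.18, which was -0.32 on flow cell B, -0.32 without empty vector 3, -0.28 without knockdown 1, -0.12 without empty vector 1, -0.11 without empty vector 2 and -0.085 without knockdown 2. Slc25a30, the most abundant of the 3, had 553 and 482 with knockdown, against 524, 539 and 496 with empty vector (log2 difference -0.0082). Its highest value was that of knockdown 1, and without knockdown 2 the log2 difference was 0.090.

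Single carriers of other substances did not pass the threshold either. Slc25a20, which exchanges carnitine for acylcarnitines on the way to fatty acid oxidation, had 199 and 205 normalized counts with knockdown, against 215, 228 and 185 with empty vector. Slc25a36 and Slc25a33, which carry pyrimidine nucleotides for mitochondrial DNA and RNA, had log2 differences of -0.072 ± 0.12 and -0.090 ± 0.14 (SE, adjusted p = 0.893 and 0.881, limma). Slc25a36 had 377 and 424 with knockdown, against 413, 416 and 433, and Slc25a33 had 281 and 308, against 313, 342 and 287. Without knockdown 1 Slc25a36 had 0.011, while Slc25a33 had -0.026 without knockdown 1 and -0.22 on flow cell B. Slc25a46, a member of the outer membrane tied to mitochondrial fusion and fission, had 1069.6 and 1138 with knockdown, against 1107, 1073 and 1119.5 (log2 difference 0.0047, adjusted p = 0.992, limma).

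Among the carriers with no substrate assigned here, Slc25a47, Slc25a35 and Slc25a45 had the highest coefficients of variation of the family among the empty vector samples, at 63.7%, 55.4% and 32.4%, while Slc25a43 had 4.59%. Slc25a47, known as a liver carrier, had 23.7 and 10.3 normalized counts with knockdown, against 3.2, 11.4 and 5.36 in empty vector samples 1, 2 and 3. These stand for about 22 and 11 reads with knockdown and 3, 14 and 5 with empty vector. Exact Poisson 95% intervals, which cover counting error only, ran from 14.9 to 35.9 and from 5.15 to 18.5 normalized counts in the knockdown samples. In the empty vector samples they ran from 0.661 to 9.36, from 6.21 to 19.1 and from 1.74 to 12.5. The groups overlapped, and the log2 difference of 1.28 ± 0.68 (SE, adjusted p = 0.652, limma) was 0.44 on flow cell B and 0.71 without knockdown 1. Slc25a47 reached the mean of 10 needed to enter the fit only through the knockdown samples, so its direction is no support for a difference. Slc25a45 had 89.5 and 88.2 with knockdown, inside the range of 105, 64.1 and 60.0 with empty vector, and a log2 difference of 0.26 that became 0.12 to 0.51 as single samples were left out. Slc25a43 and Slc25a35 had log2 differences of 0.089 and -0.030, and the 3 empty vector values of Slc25a35 ran from 13.8 to 42.9. Exons of Slc25a35 overlap those of an antisense gene, Rangrf, over 31.3% of their length, and without a stated strand setting the reads of the pair cannot be told apart. Such an antisense overlap exists for 10 carriers, among them Slc25a33 (14.9%) and Slc25a11 (8.92%). At least 1% of the 50-base words are shared with other genes for 7 carriers, among them Slc25a5, Slc25a36 (11.8%), Slc25a40 (10.3%) and Slc25a37 (8.07%).

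**Figure D4:**
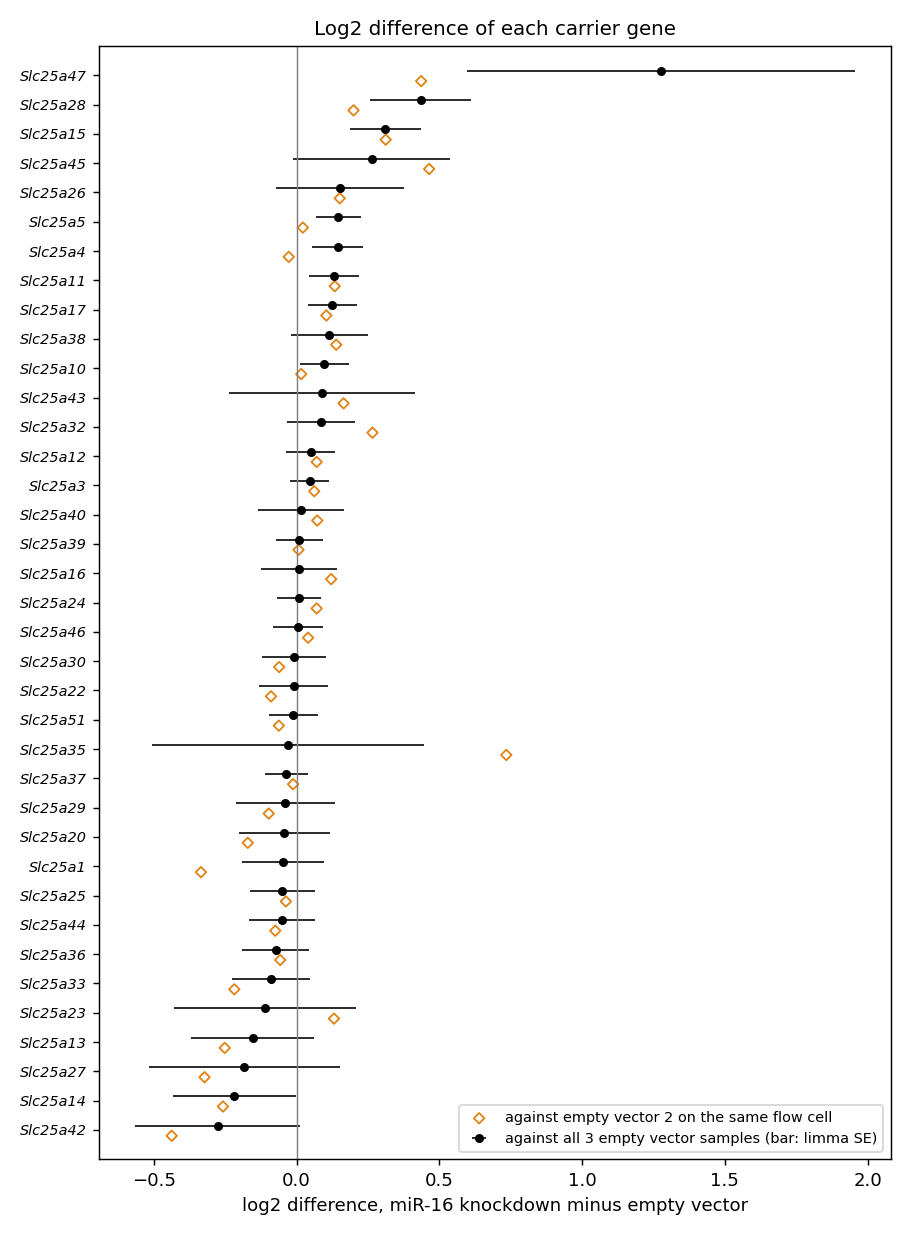
Log2 difference of the same 37 carrier genes, knockdown minus empty vector. Black points are the limma estimates against all 3 empty vector samples with their standard errors, and open diamonds use empty vector 2 alone. Slc25a15 keeps its value of 0.31 on flow cell B, whereas Slc25a5 and Slc25a4 move to 0.022 and -0.027.

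Ratios between paralogues within a sample do not depend on the size factor and were compared for 7 pairs by an exact two-sided permutation test, which with 2 against 3 samples cannot give a p below 0.2. The ratio of Slc25a4 to Slc25a5, the muscle form over the growth form, was 0.653 and 0.666 with knockdown, against 0.642, 0.682 and 0.657 with empty vector (exact p = 1). The groups overlapped, and all 5 samples held the same order of the forms. The ratio of Slc25a28 to Slc25a37 was 0.0937 and 0.109 with knockdown, against 0.057, 0.0874 and 0.0781 with empty vector. Both knockdown samples lay above every control (log2 difference 0.47, exact p = 0.2, adjusted over the pairs 1), with 0.21 on flow cell B. The ratio of Slc25a12 to Slc25a13 was 15.1 and 11 with knockdown, against 11.6, 10.3 and 11.7 with empty vector, and knockdown 1 alone stood out. The remaining pairs (Slc25a33 to Slc25a36, Slc25a40 to Slc25a39, Slc25a14 to Slc25a30 and Slc25a25 to Slc25a24) had exact p-values of 0.6 to 1.

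Genes that work beside the carriers were taken from a list of 31, covering the mitochondrial pyruvate carrier, the channels of the outer membrane, the import of carriers and related transporters. Of the 29 with a row, 25 were higher with knockdown and 4 lower (50.2% of all genes tested were higher), and their median log2 difference was 0.085. Against empty vector 2 alone, 19 of 29 were higher with a median of 0.032, where 5669 of all 11990 genes tested were higher. For 6 of 29 (20.7%, against 23.8% of all genes tested) the groups did not overlap. By limma 0 of 29 passed the threshold and 1 had an unadjusted p under 0.05, against 8.13% of all genes tested. The 3 with the smallest p encode small chaperones of the space between the membranes, which escort carriers to the inner membrane. Timm10b had 350.1 and 364 normalized counts with knockdown, against 215, 309 and 286 with empty vector. Timm9 had 372 and 336 with knockdown, against 305, 304 and 291, and both genes lay above every control in both knockdown samples. Timm10 had 406 and 331 with knockdown, against 301, 334 and 261, so its groups overlapped. Their log2 differences were 0.42, 0.23 and 0.30 (adjusted p = 0.565, 0.663 and 0.619, limma). On flow cell B they were 0.21, 0.22 and 0.13, and Timm10 had 0.12 with the length trend removed and 0.15 without knockdown 1.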

How the data were processed

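RNA was sequenced from 5 samples. The deposited table gives each gene a normalized signal, apparently a count scaled by a size factor of its sample. Of the values up to 100 reads, 88.75% to 89.26% fell on multiples of 1 read within 0.02 reads, which is too few to recover whole reads for the count test foreseen for whole counts. STAR, Partek, DESeq2 1.34.0 and mm9 are named in the submitters' processing notes. The counting tool, library kit and strand setting were not given in the sources used here. The positions in the table were not used. Deposited p-values and ratios (inhibition over control) of the authors' own comparison were copied.

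Values were taken as log2(value + 1), which understates fold changes of low genes. Genes with a mean of at least 10 entered a limma 3.58.1 fit, run in R 4.3.3 (variance trend, robust estimation, two-sided, Benjamini-Hochberg, threshold 0.05), after a test on simulated data. Of the 38 carriers, 1 is counted but not reported singly here. All 38 passed the filter. Slc25a47 did so at a mean of 10.8, and only through the knockdown samples (mean 17.0, against 6.64 with empty vector). No pair of samples was a duplicate (the median chi-square over genes was 1.63 to 3.76, where counting error alone gives 0.455). The most alike, at 1.63, were knockdown 1 and empty vector 2, both on flow cell B. The 2 knockdown samples gave 2.07, and pairs of empty vector samples 2.11 to 2.92. Transcript lengths (longest coding transcript) and 3' UTRs came from GENCODE M21, in which 99.1% of symbols were found, and miRNA sequences from RefSeq. Named were the carrier with the highest mean of each transport group, the 5 per direction with the smallest p, and the other carriers more briefly. Carriers, lists and tests were chosen with earlier results of these data known. Alternatives were other filters, pseudocounts, scalings, a flow cell term, flow cell B only, a length correction, a replicate block and leaving out each sample.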

Additional observations from a re-analysis of the deposited data

How the results depend on the processing

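No carrier passed the threshold in any of the 16 alternatives, and 549 of 603 carrier values kept their direction. The other filters and the fit without a variance trend leave each log2 difference as it was. The flow cell term gives the same log2 differences as flow cell B alone, and the replicate block the same as leaving out empty vector 3. The 549 therefore include fixed and repeated outcomes. For 15 of the 38 carriers the direction held in every setting that tested them. Higher with knockdown were Slc25a5, Slc25a10, Slc25a11, Slc25a15, Slc25a17, Slc25a26, Slc25a28, Slc25a38, Slc25a45 and Slc25a47. Lower were Slc25a14, Slc25a25, Slc25a27, Slc25a33 and Slc25a42. Of these carriers, Slc25a27 and Slc25a47 were not tested with the higher filter. No share over all genes is given beside these counts, so they do not set the carriers apart from other genes. Where 1 knockdown sample or 1 control remained, it was assumed to vary like the other group. With 2 against 3 samples, small differences are limited by the standard errors given, and low genes by counting error. The count over all genes was 0, but 0 to 107 when 1 sample was left out (28 without empty vector 2, 107 without knockdown 1). The median of the carriers was -0.019 to 0.049 and that of the partner genes 0.058 to 0.10 when 1 sample was left out. With the flow cell term, and on flow cell B alone, the partner median was 0.032, and with the length trend removed 0.054. The flow cell settings also turned Slc25a4 (-0.027), Slc25a23 (0.13) and Slc25a35 (0.73). Removing the length trend turned Slc25a3 (-0.028), Slc25a30 (0.021), Slc25a35 (0.00071), Slc25a36 (0.0044), Slc25a37 (0.012), Slc25a39 (-0.058), Slc25a43 (-0.031) and Slc25a51 (0.044). The cause was not tested.

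The replicate numbers are shared by name only. Deviations of same-numbered samples correlated at 0.0864 for number 1 and 0.0286 for number 2. For samples with different numbers the correlations ran from -0.0864 to 0.0609, the highest being knockdown 2 with empty vector 3. With 2 knockdown samples the deviations are mirror images, so each correlation has its opposite. With the replicate block 311 genes and 0 carriers passed, the carrier median was 0.049, and Slc25a35 (0.37) and Slc25a51 (0.00012) turned.

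Leaving out 1 sample gave log2 differences from below to above 0 for Slc25a1 (-0.21 to 0.12), Slc25a12 (-0.012 to 0.11), Slc25a13 (-0.32 to 0.013), Slc25a16 (-0.17 to 0.19), Slc25a20 (-0.13 to 0.021), Slc25a22 (-0.11 to 0.085), Slc25a23 (-0.40 to 0.18), Slc25a24 (-0.023 to 0.055), Slc25a29 (-0.11 to 0.034), Slc25a30 (-0.11 to 0.090), Slc25a32 (-0.0032 to 0.21), Slc25a35 (-0.41 to 0.37), Slc25a36 (-0.16 to 0.011), Slc25a39 (-0.032 to 0.050), Slc25a40 (-0.014 to 0.049), Slc25a43 (-0.15 to 0.33), Slc25a44 (-0.21 to 0.10), Slc25a46 (-0.040 to 0.049) and Slc25a51 (-0.049 to 0.013). Whole counts were not in the table, so the count test was not run. Slc25a23, Slc25a27, Slc25a35, Slc25a43 and Slc25a47 drop out with a filter at a mean of 50.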
